A study of Mus musculus with 7 samples.

Results

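The genes described here encode the collagens, proteoglycans and glycoproteins that fibroblasts lay down around a tumour, with the enzymes that process them and 4 surface proteins of fibroblasts. They were taken by name: 38 genes were listed, and every probe set whose only annotated symbol was on the list was used. This gave 68 of the 22626 non-control probe sets, for 36 genes of the 12393 with such a probe set. Fbn1 and Loxl2 had none and were not analysed here.

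RNA came from mouse tumours grown as transplants of Met1 (3 arrays) or DB7 (4 arrays), as the sample labels name them, measured on single-colour Affymetrix arrays. The series' design text instead speaks of tumours of F1 outcross animals; the labels were followed, and which of these describes the samples was not settled. All tumours were snap-frozen after the animals were killed under Avertin, an anaesthetic, and no treatment separates the groups. Whether the arrays of a line came from separate animals is not stated, and the p-values therefore cover array-to-array spread that could be technical in part. Both lines are mammary tumour lines of mice in which the mouse mammary tumour virus promoter drove polyoma middle T, and DB7 is known to carry a mutated form of that oncogene. Met1 is known to metastasise more readily than DB7. Each group is therefore a single line, and the sources used here do not give the age, sex or strain of the recipients or the site of the transplants. Epithelial identity could be checked on the arrays, since the keratin genes Krt8 and Krt18 and the adhesion gene Epcam lay above the array median on all 7 arrays. Esr1, also on the epithelial list, lay below it on all 7, and the keratin gene Krt19 of that list exceeded it on only 2.

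Collagen chains are made as procollagen, fold in the endoplasmic reticulum with a dedicated chaperone, are trimmed after secretion and are then crosslinked by lysyl oxidases into fibrils. Small proteoglycans and adhesive glycoproteins bind these fibrils and set their spacing and their contact with cells. In a transplanted mammary tumour most fibroblasts come from the recipient, and a dense, crosslinked stroma is a known feature of mammary carcinoma. A bulk tumour sample does not tell apart fewer fibroblasts and less RNA per fibroblast.

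All values below are log2 summaries, and differences are Met1 minus DB7 on that scale. Testing was limited to probe sets that exceeded the array median on 3 or more arrays of the 7, and 48 of the 68 probe sets and 30 of the 36 genes met this. Each gene is given by its tested probe set with the highest mean. Ogn, Aspn, Vcan, Fap, Pdgfra and Pdgfrb were not tested. Thbs2 and Thy1 passed with all 3 Met1 arrays but only 2 DB7 arrays above the median, so their inclusion depended on Met1. Fmod passed with 2 Met1 arrays and 1 DB7 array above it.

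Of the 30 tested genes, 2 were higher in Met1 past the threshold (limma, adjusted p under 0.05), Thbs1 and Lox, and 0 were lower. Across all 7482 tested genes 30.9% passed, 13% higher and 17.9% lower in Met1. At an unadjusted p under 0.05, 6 members lay above 0 and 1 below, against 17.2% and 23.9% of all tested genes. Differences lay above 0 for 28 of the 30, with a median of 0.53, beside a median of -0.04 over all tested genes. Values of the lines did not overlap for 2 of the 30 genes, Thbs1 above and Serpinh1 below, where 39.2% of all tested genes did not overlap (16.2% above and 23% below). The members' median SD within DB7 was 0.69, beside 0.14 over all tested genes. Among the probe sets, 5 of 48 passed, all higher in Met1, beside 31% of all tested probe sets (13.4% higher).

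**Figure D1:**
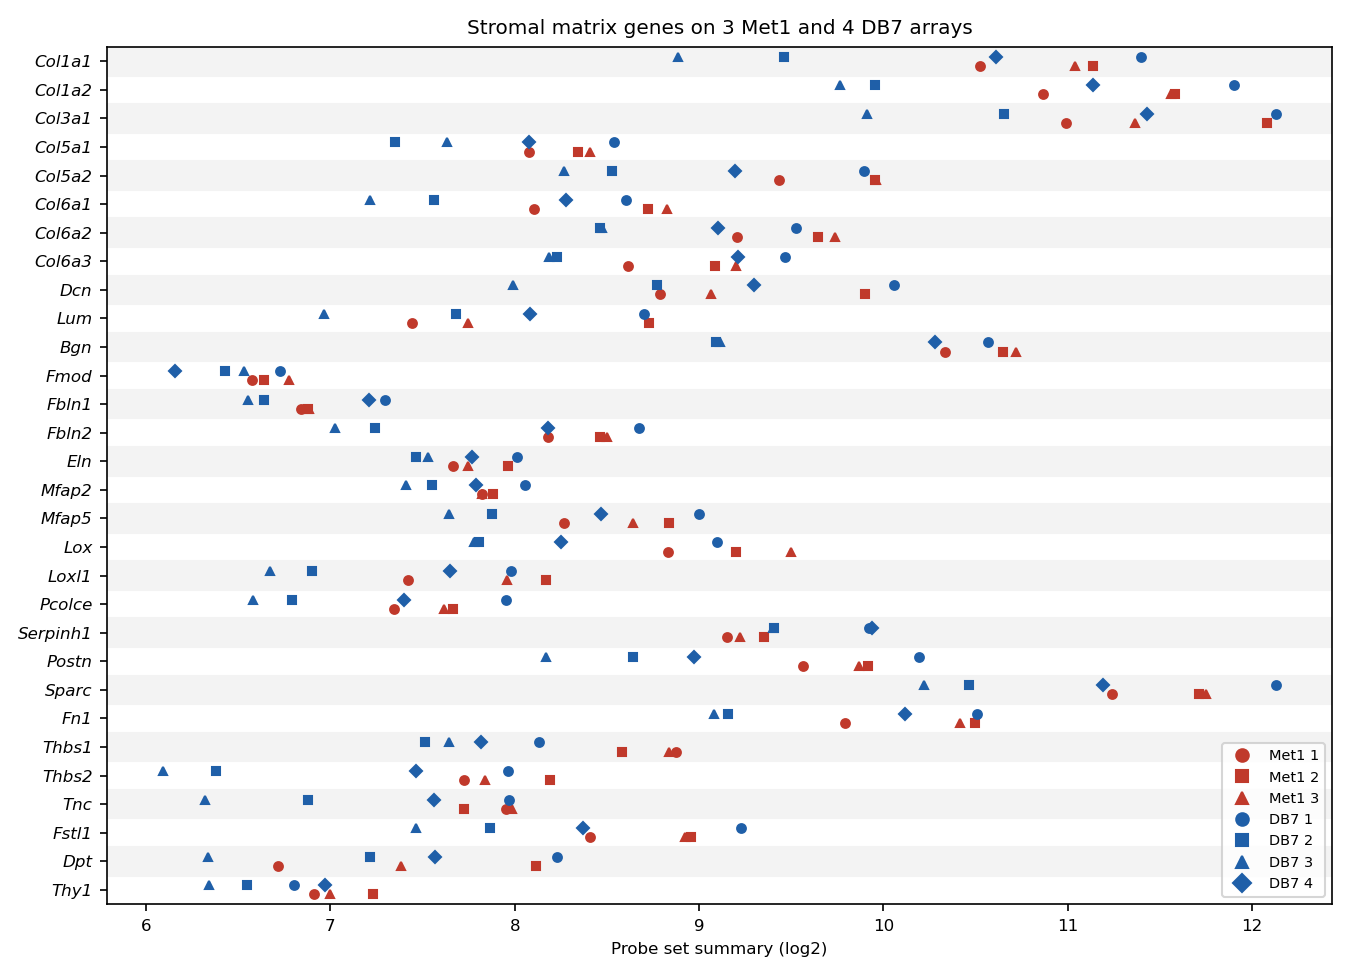
Log2 probe set summary (x axis) of the 30 tested matrix genes (y axis), with 1 symbol for each array, red for the 3 Met1 arrays and blue for the 4 DB7 arrays. DB7 1 lies above all 3 Met1 arrays for 18 of the 30 genes, beside 41.1% of all tested genes. All 3 Met1 arrays lie above DB7 2 and DB7 3 for 27, beside 24.2%.

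The fibrillar collagens, which form the fibrils themselves, did not pass in any of the 5 genes. Col1a1, a chain of type I collagen, measured 10.53, 11.14 and 11.04 on Met1 1, 2 and 3 and 11.40, 9.46, 8.88 and 10.61 on DB7 1, 2, 3 and 4. DB7 1 was the highest of the 7 arrays and DB7 3 the lowest, so the lines overlapped. The difference was 0.81 (95% interval -0.36 to 1.99; limma, adjusted p = 0.275). Its partner chain Col1a2 measured 10.87, 11.58 and 11.56 in Met1 and 11.90, 9.96, 9.77 and 11.14 in DB7, in the same array order within DB7. That difference was 0.65 (-0.43 to 1.72).

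Col3a1, the chain of type III collagen found with type I in loose stroma, measured 10.99, 12.08 and 11.37 in Met1 and 12.13, 10.65, 9.91 and 11.43 in DB7. Here Met1 2 stood near DB7 1, and Met1 1 lay below DB7 4. Its difference was 0.45 (SE 0.47; adjusted p = 0.521). Col5a2, a type V chain that helps to start fibrils, measured 9.44, 9.96 and 9.96 in Met1 and 9.90, 8.53, 8.27 and 9.19 in DB7. Only DB7 1 reached into the Met1 range. The difference of 0.81 had an interval of 0.02 to 1.60 and did not pass (adjusted p = 0.110), whereas the dimmer probe set of the gene did, without overlap of the lines (0.68, SE 0.17; adjusted p = 0.0175). Col5a1, the other type V chain, differed by 0.38 (adjusted p = 0.287), with its other tested probe sets at 0.45 and 0.04.

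The start regions of the fibrillar chains with a RefSeq entry, Col1a2, Col3a1 and Col5a1, and of the chaperone gene Serpinh1, whose difference had the opposite sign, are shown to set their sequences side by side. Each runs 5′ to 3′ on the gene's strand from 250 bases before to 50 bases after the RefSeq gene start (GRCm38.p6). Capitals mark every match, on either strand, to one of 6 motifs. The TATA box was searched as TATAAA, the sequence of the CCAAT box by those letters and the GC box as GGGCGG. The AP-1 site was searched as TGANTCA, the SMAD element as CAGACA and the heat shock element as GAANNTTC.
Col1a2, chr6:4505368-4505667, plus strand: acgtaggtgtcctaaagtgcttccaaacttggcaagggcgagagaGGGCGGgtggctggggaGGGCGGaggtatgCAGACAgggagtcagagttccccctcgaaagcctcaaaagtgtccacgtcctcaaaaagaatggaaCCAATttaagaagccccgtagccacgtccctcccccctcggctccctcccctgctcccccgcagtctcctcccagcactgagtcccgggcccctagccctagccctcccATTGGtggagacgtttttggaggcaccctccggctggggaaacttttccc
Col3a1, chr1:45311288-45311587, plus strand: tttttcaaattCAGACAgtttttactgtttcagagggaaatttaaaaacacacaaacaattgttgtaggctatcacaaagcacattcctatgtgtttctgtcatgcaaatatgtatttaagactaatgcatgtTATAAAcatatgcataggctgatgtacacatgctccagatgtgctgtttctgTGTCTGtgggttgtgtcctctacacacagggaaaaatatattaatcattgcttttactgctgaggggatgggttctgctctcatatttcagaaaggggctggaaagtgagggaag
Col5a1, chr2:27886175-27886474, plus strand: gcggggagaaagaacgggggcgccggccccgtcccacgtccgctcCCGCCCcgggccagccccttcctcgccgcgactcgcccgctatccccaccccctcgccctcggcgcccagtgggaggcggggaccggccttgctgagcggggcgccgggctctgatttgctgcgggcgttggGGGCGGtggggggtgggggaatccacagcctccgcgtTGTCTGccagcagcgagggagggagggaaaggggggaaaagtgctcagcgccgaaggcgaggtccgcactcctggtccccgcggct
Serpinh1, chr7:99353190-99353489, minus strand: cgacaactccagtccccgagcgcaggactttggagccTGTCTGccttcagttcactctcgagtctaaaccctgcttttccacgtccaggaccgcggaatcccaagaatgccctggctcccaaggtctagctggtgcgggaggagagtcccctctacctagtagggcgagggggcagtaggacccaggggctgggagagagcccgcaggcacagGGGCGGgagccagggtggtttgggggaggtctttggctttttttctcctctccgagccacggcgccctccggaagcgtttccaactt
The Col1a2 window held 2 GC boxes, a CAGACA and 2 CCAAT boxes, 1 of each strand. In Col3a1 a TATAAA stood at position -117 from the gene start, between 2 CAGACA elements of opposite strands. Col5a1 held GC boxes at -205 and -73 and a CAGACA on the minus strand at -36. Serpinh1 held a CAGACA on the minus strand and a GC box at -37. No 2 of the marked matches overlapped. CAGACA was thus in all 4 windows, and 21% of the 32851 RefSeq windows of this length hold it. The 24 listed genes with an entry had 29 windows, of which 11 held CAGACA, 15 GGGCGG (35.7% of all windows), 8 TATAAA (13.6%) and 7 CCAAT (37.4%). TGANTCA was in the Col6a1 window alone (7.81% of all windows) and GAANNTTC in that of Fstl1 alone (7.86%). These matches describe letters in a window and were not tested against the array values.

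Collagen VI, which forms beaded filaments around cells, did not pass for any of its 3 chains. Col6a2 measured 9.21, 9.64 and 9.74 in Met1 and 9.52, 8.46, 8.48 and 9.10 in DB7. DB7 1 again lay inside the Met1 range and the other DB7 arrays below it. The difference was 0.64 (0.05 to 1.23; adjusted p = 0.0965). Col6a1, its neighbour on chromosome 10, differed by 0.64 (-0.10 to 1.37) and Col6a3 by 0.19 (-0.54 to 0.92).

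Among the small leucine-rich proteoglycans, which coat collagen fibrils, 4 of 6 genes were tested and 0 passed. Bgn, biglycan, measured 10.34, 10.65 and 10.72 in Met1 and 10.57, 9.09, 9.11 and 10.28 in DB7. Met1 1 lay between DB7 4 and DB7 1, and DB7 2 and DB7 3 lay more than 1 log2 unit below every Met1 array. Its difference was 0.80 (-0.00380 to 1.61; adjusted p = 0.121), and its 3 probe sets lay between 0.67 and 0.80. Dcn, decorin, measured 8.79, 9.90 and 9.06 in Met1 and 10.06, 8.77, 7.99 and 9.30 in DB7. Here the spread within Met1 was itself wide, with Met1 2 about as high as DB7 1 and Met1 1 level with DB7 2. The difference of 0.22 (SE 0.44) took the other sign, at -0.10, without Met1 2 and, at -0.12, without DB7 3.

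Lum, lumican, lies next to Dcn on chromosome 10 and differed by 0.11 (-0.81 to 1.04). Fmod, fibromodulin, measured 6.58, 6.64 and 6.77 in Met1 and 6.73, 6.43, 6.53 and 6.16 in DB7, close to the array medians throughout. It was among the members with the smallest spread in DB7, and the only tested member with its lowest DB7 value in DB7 4. Ogn, osteoglycin, measured 6.30, 7.72 and 6.30 in Met1 and 7.21, 5.80, 5.27 and 6.27 in DB7 at its brighter probe set. Only Met1 2 and DB7 1 lay above the array median. Both probe sets of Aspn, asporin, lay below the median on all 7 arrays.

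Of the 6 listed elastic fibre genes 5 were tested and 0 passed, with a median difference of 0.14. Eln, elastin, measured 7.66, 7.97 and 7.75 in Met1 and 8.01, 7.46, 7.53 and 7.77 in DB7, and Mfap2, a protein of the microfibrils around elastin, 7.82, 7.88 and 7.82 and 8.05, 7.55, 7.41 and 7.79. Both had narrow ranges in each line, with DB7 1 the highest array. The intervals were -0.22 to 0.42 for Eln and -0.18 to 0.46 for Mfap2, and the 2 tested probe sets of Eln had opposite signs (0.10 and -0.12). Fbln2, fibulin 2, differed by 0.60 (-0.21 to 1.41) and Fbln1, its relative in basement membranes and elastic fibres, by -0.06 (-0.47 to 0.35). Mfap5, another microfibril protein, differed by 0.33, and by -0.07 at its other tested probe set.

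Of the 5 listed genes of collagen processing and crosslinking 4 were tested and 1, Lox, passed. Lox, lysyl oxidase, which crosslinks collagen and elastin, measured 8.83, 9.20 and 9.50 in Met1 and 9.10, 7.80, 7.78 and 8.25 in DB7. DB7 1 lay between Met1 1 and Met1 2, and the other 3 DB7 arrays lay below all of Met1. Lox was 1.92-fold higher in Met1 (difference 0.94, SE 0.31; limma, adjusted p = 0.0446), and its other tested probe set differed by 0.88 (adjusted p = 0.0443). The call was lost in 10 of 20 alternative fits, including those without any single array other than DB7 1, where adjusted p ranged from 0.0576 without Met1 1 to 0.159 without Met1 3. Loxl1, a related oxidase of elastic fibres, differed by 0.55 (-0.16 to 1.26), and Pcolce, which speeds the trimming of procollagen, by 0.36 (-0.29 to 1.01), or by 0.83 at its other probe set.

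Serpinh1, the collagen chaperone of the endoplasmic reticulum, measured 9.15, 9.35 and 9.22 in Met1 and 9.92, 9.41, 9.40 and 9.94 in DB7. Every DB7 array lay above every Met1 array, though DB7 2 and DB7 3 did so narrowly. The difference of -0.42 (-0.78 to -0.07) did not pass (limma, adjusted p = 0.0691), and its other probe set differed by -0.48 with overlapping lines. Serpinh1 did pass, lower in Met1, without DB7 2, without DB7 3 and with array weights. Against DB7 2 and DB7 3 alone the difference was -0.16 (adjusted p = 0.239).

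Of 9 listed adhesive and matricellular glycoproteins 8 were tested and 1, Thbs1, passed. Thbs1, thrombospondin 1, which can activate latent TGF-beta and restrain vessel growth, measured 8.87, 8.58 and 8.83 in Met1 and 8.13, 7.51, 7.65 and 7.82 in DB7. All Met1 arrays lay above all DB7 arrays, and Thbs1 was the only tested member whose highest Met1 value was in Met1 1. It was 1.98-fold higher in Met1 (difference 0.99, SE 0.15; limma, adjusted p = 0.00130), and its second probe set, also without overlap, differed by 0.73 (adjusted p = 0.0122). The call held in all 20 alternative fits, with differences from 0.86 to 1.19 and adjusted p from 0.000285 to 0.00925. A further probe set annotated to both Pald1 and Thbs1 was not used.

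Thbs2, a relative of Thbs1 found in connective tissue, measured 7.72, 8.19 and 7.84 in Met1 and 7.96, 6.38, 6.09 and 7.47 in DB7. DB7 1 and DB7 4 stood above DB7 2 and DB7 3 by more than 1 log2 unit, and only DB7 1 reached the Met1 range. The difference of 0.94 (0.02 to 1.86) did not pass (adjusted p = 0.112). Its values in DB7 2 and DB7 3 were below the array median. At the other tested probe set of Thbs2 the lines did not overlap. That difference of 0.68 (0.12 to 1.24) did not pass either (limma, adjusted p = 0.0682).

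Tnc, tenascin C, a glycoprotein of remodelled stroma, measured 7.95, 7.72 and 7.99 in Met1 and 7.97, 6.88, 6.32 and 7.56 in DB7. Met1 arrays spanned 0.26 and DB7 arrays 1.65. Postn, periostin, which links collagen to other matrix proteins, measured 9.57, 9.91 and 9.87 in Met1 and 10.20, 8.64, 8.17 and 8.97 in DB7. DB7 1 lay above all of Met1, and the other DB7 arrays lay below it. Their differences were 0.70 (-0.05 to 1.46) and 0.79 (-0.11 to 1.69), with adjusted p of 0.144 and 0.166.

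Sparc, a collagen-binding matricellular protein, measured 11.24, 11.71 and 11.75 in Met1 and 12.13, 10.47, 10.22 and 11.19 in DB7. DB7 1 was again the highest array and DB7 3 the lowest. Fn1, fibronectin, on which cells and other matrix proteins assemble, measured 9.79, 10.50 and 10.42 in Met1 and 10.51, 9.16, 9.08 and 10.12 in DB7. Both lines overlapped, with differences of 0.56 (-0.34 to 1.47) and 0.52 (-0.27 to 1.31). Fstl1, a secreted follistatin-like glycoprotein, differed by 0.53 (-0.29 to 1.35) and Dpt, dermatopontin, a partner of decorin, by 0.07 (-0.92 to 1.06). The 3 probe sets of Vcan, versican, lay below the array median on all 7 arrays and differed by -0.08 to 0.21.

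Surface proteins of fibroblasts were dim. Thy1, a glycoprotein of fibroblasts that T cells also carry, measured 6.91, 7.23 and 6.998 in Met1 and 6.80, 6.55, 6.34 and 6.97 in DB7. DB7 4 lay inside the Met1 range, the other 3 DB7 arrays below it. Its difference was 0.38 (0.04 to 0.72; adjusted p = 0.0888). Fap, the fibroblast activation protein, measured 6.07, 6.62 and 6.24 in Met1 and 6.60, 5.68, 5.22 and 5.81 in DB7. Only Met1 2 lay above its array's median.

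The receptors for platelet-derived growth factor were below the median on every array. Pdgfra, the receptor of many tissue fibroblasts, measured 5.80, 6.30 and 6.06 in Met1 and 6.02, 5.25, 5.08 and 5.80 in DB7 at one probe set, and differed by 0.06 at the other. Pdgfrb, the receptor of pericytes and activated fibroblasts, measured 6.03, 6.06 and 6.22 in Met1 and 5.57, 5.09, 5.09 and 5.62 in DB7 at one probe set, where the lines did not overlap (difference 0.76, SE 0.15). Its other probe set differed by 0.22 (SE 0.11) with overlapping lines, so the 2 disagree in size. With no filter on low values the first had a limma adjusted p of 0.00727 over all 22626 probe sets.

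**Figure D2:**
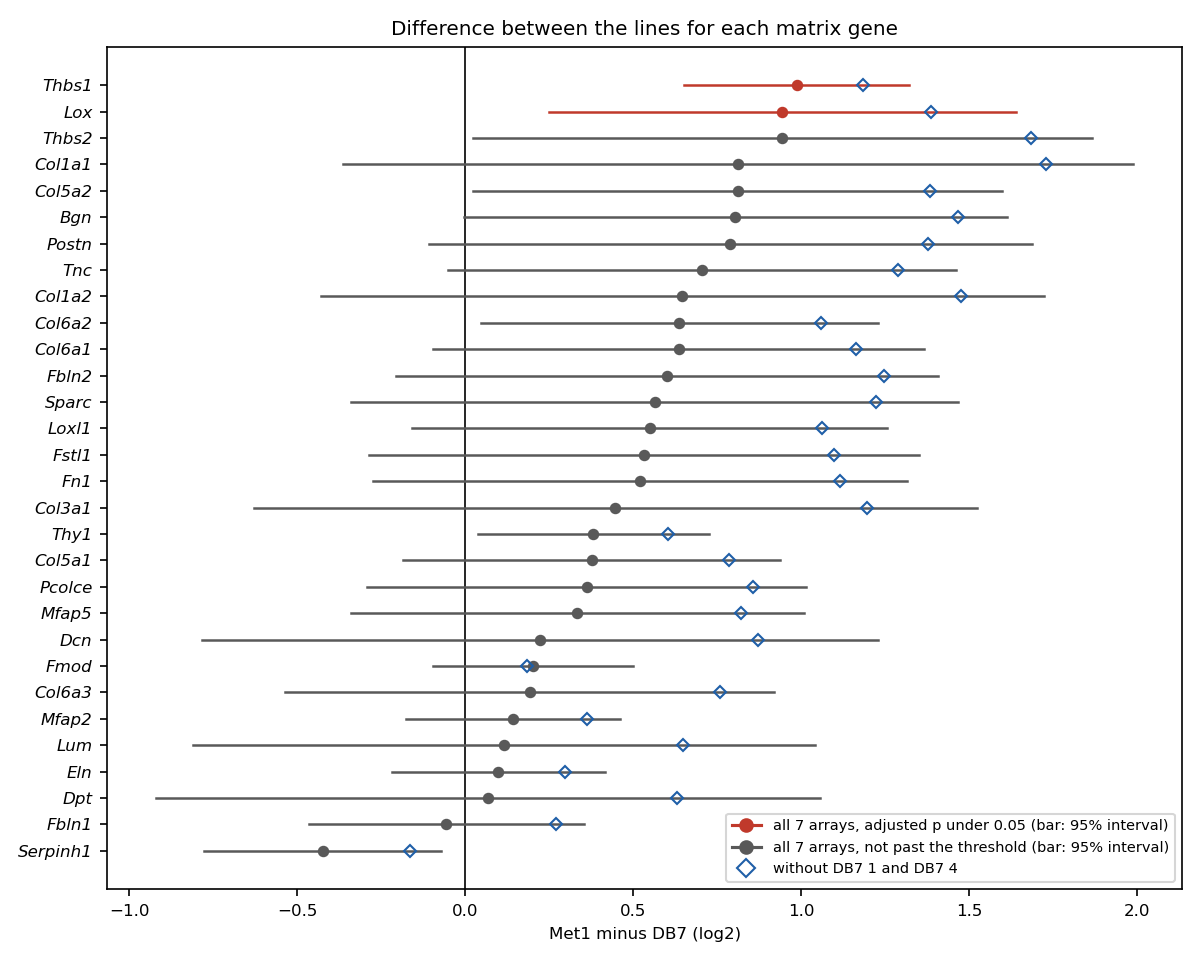
Met1 minus DB7 difference (log2, x axis) of the 30 tested genes (y axis), with filled points and 95% limma intervals for all 7 arrays, red where adjusted p was under 0.05, and open diamonds for the difference without DB7 1 and DB7 4. The diamonds lie to the right of the filled points for 29 of the 30 genes, Fmod being the exception, with a median of 1.08 against 0.53.

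Within DB7 most members shared an order of arrays. DB7 1 held the highest DB7 value for 28 of the 30 tested genes, where 20% of all tested genes had theirs, and Serpinh1 and Thy1 had theirs in DB7 4. DB7 1 came first and DB7 4 second for 27 of the 30, against 10.1% of all tested genes. The full order DB7 1, DB7 4, DB7 2, DB7 3 held for 22, against 4.54%. Over all 68 member probe sets, tested or not, DB7 1 was highest in 63, where 23.6% of all non-control probe sets had it highest. The mean over the 30 genes was 9.16 in DB7 1 and 8.65 in DB7 4, against 8.02 in DB7 2 and 7.77 in DB7 3, while the mean over all tested genes lay between 8.01 and 8.06 on these arrays. Genes of 1 sample share its cells and its RNA, so these counts describe the arrays and are not independent observations.

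The gap between DB7 1 and DB7 3 ranged widely among members. It was 2.51 for Col1a1, 2.22 for Col3a1 and 2.13 for Col1a2. Type V chains spanned less, at 1.63 for Col5a2 and 0.91 for Col5a1. The smallest were Fmod (0.19), Thy1 (0.46), Eln (0.49) and Thbs1 (0.49). Type I and type III collagen chains thus had the widest gaps at the probe sets that represent the genes. The ranking depended on the probe set, since the other tested probe set of Col1a1 had a gap of 1.52, below that of Col5a2. Of the 2 genes that passed between the lines, Thbs1 had one of the narrowest gaps, whereas that of Lox was 1.32.

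**Figure D3:**
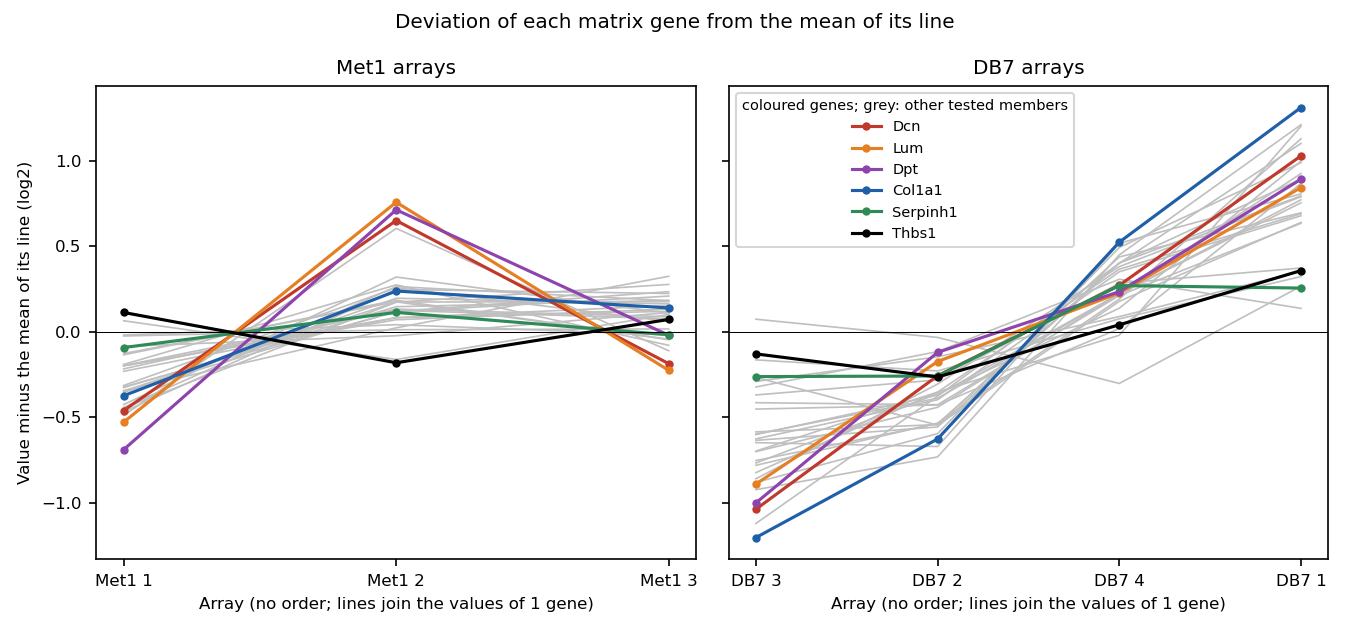
Value of each tested gene minus the mean of its line (log2, y axis) on the 3 Met1 arrays and on the 4 DB7 arrays, which are placed from DB7 3 to DB7 1 for display. Most lines climb from DB7 3 to DB7 1; in Met1, Dcn, Lum and Dpt peak at Met1 2 and Thbs1 is lowest there.

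Met1 arrays also shared an order. Met1 1 was the lowest Met1 array for 27 of the 30 genes, against 20.6% of all tested genes. Mfap2 had equal lowest values on Met1 1 and Met1 3, and Thbs1 and Tnc were lowest in Met1 2. The highest value was in Met1 2 for 17 genes and in Met1 3 for 12. Dpt was 0.73 higher in Met1 2 than in Met1 3, Lum 0.98, Dcn 0.84 and Col3a1 0.72. Col1a1 and Col1a2 differed by 0.10 and 0.02 between these arrays, the collagen VI chains by -0.12 to -0.09 and Lox by -0.30. Met1 2 thus separated Dcn, Lum, Dpt and Col3a1 from the other fibril and filament genes, a grouping made after the values were seen.

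Members that are neighbours in the genome did not always share this order. In RefSeq's gene table for GRCm38.p6, Dcn and Lum, Col3a1 and Col5a2, and Col6a1 and Col6a2 are next to each other with no protein-coding gene between. Dcn and Lum both peaked in Met1 2. Col3a1 did so too, whereas Col5a2 measured 9.96 in Met1 2 and 9.96 in Met1 3.

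The spread of member probe sets exceeded that of the array in both lines. The median SD over the 48 tested member probe sets was 0.63 in DB7 and 0.24 in Met1, beside 0.14 and 0.09 over all tested probe sets. The SD was larger in DB7 than in Met1 for all 30 genes, as it was for 5313 of all 7482 tested genes. Without Met1 1 the median in Met1 was 0.08, beside 0.06 over all tested probe sets, and without DB7 1 and DB7 4 the median in DB7 was 0.15, beside 0.11. These arrays hold the extreme member values, so leaving them out lowers the SD by construction. Without Met1 2 or Met1 3 the median in Met1 was 0.27 and 0.30, and without any 1 DB7 array the median in DB7 was 0.48 to 0.74.

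**Figure D4:**
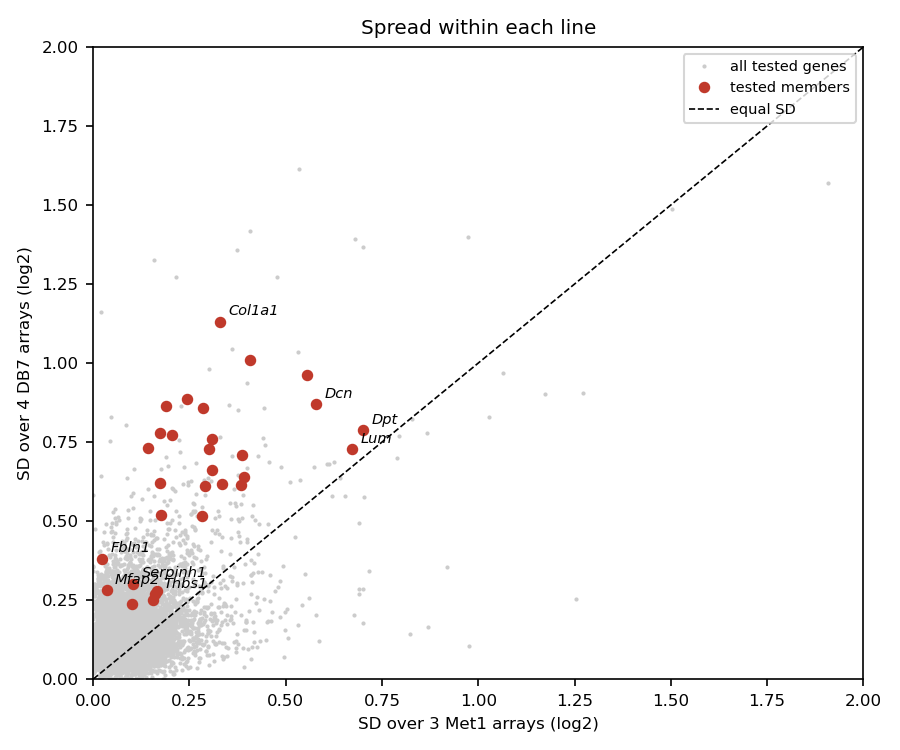
SD over the 3 Met1 arrays (x axis) and over the 4 DB7 arrays (y axis), both log2, for all 7482 tested genes in grey and the 30 tested members in red, with a dashed line at equal SD. All 30 members lie above the dashed line.

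The comparison was repeated without DB7 1 and DB7 4. Against DB7 2 and DB7 3 alone, 23 of the 30 members were higher in Met1 and 0 lower (limma, adjusted p under 0.05), where 31.9% of all tested genes passed, 14.2% higher and 17.7% lower. All 5 fibrillar collagens, all 3 collagen VI chains, 7 of 8 adhesive glycoproteins, 3 of 4 processing genes and 3 of 5 elastic fibre genes were among them. Col1a1 differed by 1.73 (adjusted p = 0.00155), Bgn by 1.47 (0.000293) and Thbs2 by 1.68 (0.000408). Dcn, Lum and Dpt did not pass, at 0.87, 0.65 and 0.63. Since the 2 arrays with the highest member values of DB7 were left out with those values known, this raises Met1 minus DB7 by construction and is no independent support for a higher level in Met1. Without DB7 1 alone 15 members were higher, and without DB7 3 alone 1 was higher and 1 lower. The share of all tested genes that passed was not counted for the fits without a single array, so these counts have no background beside them.

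A wider list held other genes of matrix assembly. Of 76 further matrix genes 63 were measured and 42 tested, of which 12 were higher and 5 lower in Met1 (limma; 13% and 17.9% of all tested genes). This list was also chosen with earlier results known. Fbln5, which brings elastin to microfibrils, was 4.15-fold higher in Met1 (8.83, 8.87 and 9.23 against 7.26, 6.66, 6.72 and 7.07 in DB7; adjusted p = 4.42e-05). Col11a1, a minor fibrillar collagen known from cartilage and from stroma of carcinomas, was 5.50-fold higher (9.47, 10.02 and 9.92 against 7.26, 6.86, 7.07 and 8.19; adjusted p = 0.000333). Neither overlapped between the lines.

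Col16a1, a collagen associated with fibrils, was 2.37-fold higher, and P4hb, a subunit of the prolyl hydroxylase and a general disulfide isomerase, 2.04-fold (adjusted p = 0.000521 and 3.2e-05). In the other direction Plod2, a lysyl hydroxylase that prepares collagen for crosslinks, was 2.26-fold lower in Met1 (7.63, 7.74 and 7.39 against 8.76, 8.84, 8.76 and 8.70; adjusted p = 5.21e-05). Ltbp1, a binding protein of latent TGF-beta, was 2.28-fold lower and Ddr2, a collagen receptor of fibroblasts, 1.77-fold lower (adjusted p = 0.00175 and 0.000421). Ltbp1 lay above the array median on 3 DB7 arrays and on 0 Met1 arrays, so it was tested only through DB7, where it is high. Prelp, a leucine-rich proteoglycan, was 1.79-fold lower (adjusted p = 0.0102). P4hb and Plod2 varied little among DB7 arrays, with SDs of 0.03 and 0.06. Of the 42 tested genes of this list, 30 had their highest DB7 value in DB7 1, counting Plod3 and Mfap3, where another DB7 array equalled it. Among all tested genes 20% had theirs in DB7 1, with such ties not counted.

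Markers of other cell types stood beside these orders. Of 5 measured adipocyte genes (6 listed), Lep, Cidec and Pparg lay below the median on all 7 arrays. The mean of the 5 was 5.39, 6.64 and 6.13 on the Met1 arrays and 6.80, 5.72, 5.37 and 6.04 on the DB7 arrays. Adipoq, adiponectin, a hormone of fat cells, measured 5.29, 8.29 and 6.98 in Met1 and 8.71, 6.51, 5.10 and 7.02 in DB7. It therefore peaked in Met1 2 and DB7 1, as Dcn, Lum and Dpt did. Other members, Col1a1, Col1a2, Col3a1 and Fn1 among them, also peaked in these arrays. Fabp4, the fatty acid binding protein of fat cells and capillaries, measured 7.86, 9.91 and 9.36 and 9.88, 8.25, 7.58 and 8.64, in the same order of arrays within each line. Cidec and Pparg had this order in Met1, but within DB7 Cidec was lowest in DB7 2 and Pparg was highest in DB7 4. Lep was highest in DB7 3 within DB7 and did not have the order in Met1.

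The means of 7 other lists, of macrophages, endothelium, pericytes and smooth muscle, B and plasma cells, T cells, basal or myoepithelial cells, and cartilage and bone, also put DB7 1 and DB7 4 above the other DB7 arrays. Single genes did not always do so. In the basal list Acta2 and Krt14 did, Krt5, Krt17, Trp63 and Myh11 did not, and Trp63 was lowest in DB7 1. Exceptions were also Rgs5, Cnn1, Myh11 and Des of the pericyte list and Cd3e, Cd3g and Cd4 of the T cell list. Cd14 of the macrophage list and Esam of the endothelial list were exceptions too. The mean of 8 macrophage genes ranged from 8.43 to 8.69 in Met1 and from 7.84 to 8.78 in DB7, and that of 8 endothelial genes from 6.80 to 7.08 and from 6.59 to 7.23. For 7 pericyte and smooth muscle genes it ranged from 6.99 to 7.10 and from 6.70 to 6.93. Of the 5 tested genes of this list 2 were higher in Met1, beside 13% of all tested genes, and the median difference was 0.45. They were Rgs5, a regulator of G protein signalling in pericytes (limma, adjusted p = 0.0177), and Mylk, the kinase of smooth muscle myosin (limma, adjusted p = 0.00182). Mylk lay above the array median on all 3 Met1 arrays but on DB7 1 alone in DB7, so its testing depended on Met1, where it is high. The 6 measured B and plasma cell genes averaged 7.18 in DB7 1 and 7.51 in DB7 4 and 5.73 to 6.05 elsewhere, with 3 of them below the median on all 7 arrays. Their mean was higher in DB7 4 than in DB7 1, the reverse of the matrix mean. Basal or myoepithelial genes averaged 6.43 to 6.58 in Met1 and 6.28 to 6.49 in DB7. T cell genes averaged 6.04 to 6.24 in Met1 and 6.13 to 6.51 in DB7. Of 4 cartilage and bone genes, Col2a1, the collagen of cartilage, measured 8.65, 7.52, 8.17 and 10.48 in DB7 and 7.28, 7.64 and 7.26 in Met1, so DB7 4 rather than DB7 1 was highest. Sox9, Acan and Ibsp, the other genes of that list, did not have DB7 1 and DB7 4 as their highest DB7 arrays.

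The mean of the epithelial list did not follow the matrix order, at 9.50 to 9.62 over the DB7 arrays and 9.01 to 9.35 in Met1. Its genes differed within DB7. Krt8, Krt18 and Epcam were lower in DB7 1 and DB7 4 than in DB7 2 and DB7 3, and Cdh1 was lowest in DB7 1. Krt19, which was not tested, and Cldn3 had the order DB7 1, DB7 4, DB7 2, DB7 3. Cldn4 and Esr1 had neither order. Of the list's 6 tested genes 4 were lower in Met1, beside 17.9% of all tested genes. Skeletal muscle and red blood cell lists spanned at most 0.20 in DB7. Among the tested genes of the remaining lists, 1 macrophage gene and 1 skeletal muscle gene were higher in Met1, and 1 T cell gene and 1 cartilage or bone gene were lower (limma, adjusted p under 0.05). Over all tested genes 13% were higher and 17.9% lower. The skeletal muscle gene, Mb, lay above the array median on the 3 Met1 arrays only, so it was tested only through Met1, where it is high. The T cell gene, Cd3d, lay above it on every DB7 array but in Met1 on Met1 1 alone. Its testing thus depended on DB7, where it is high. The part of any of these cell types in the matrix results was not tested.

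**Figure D5:**
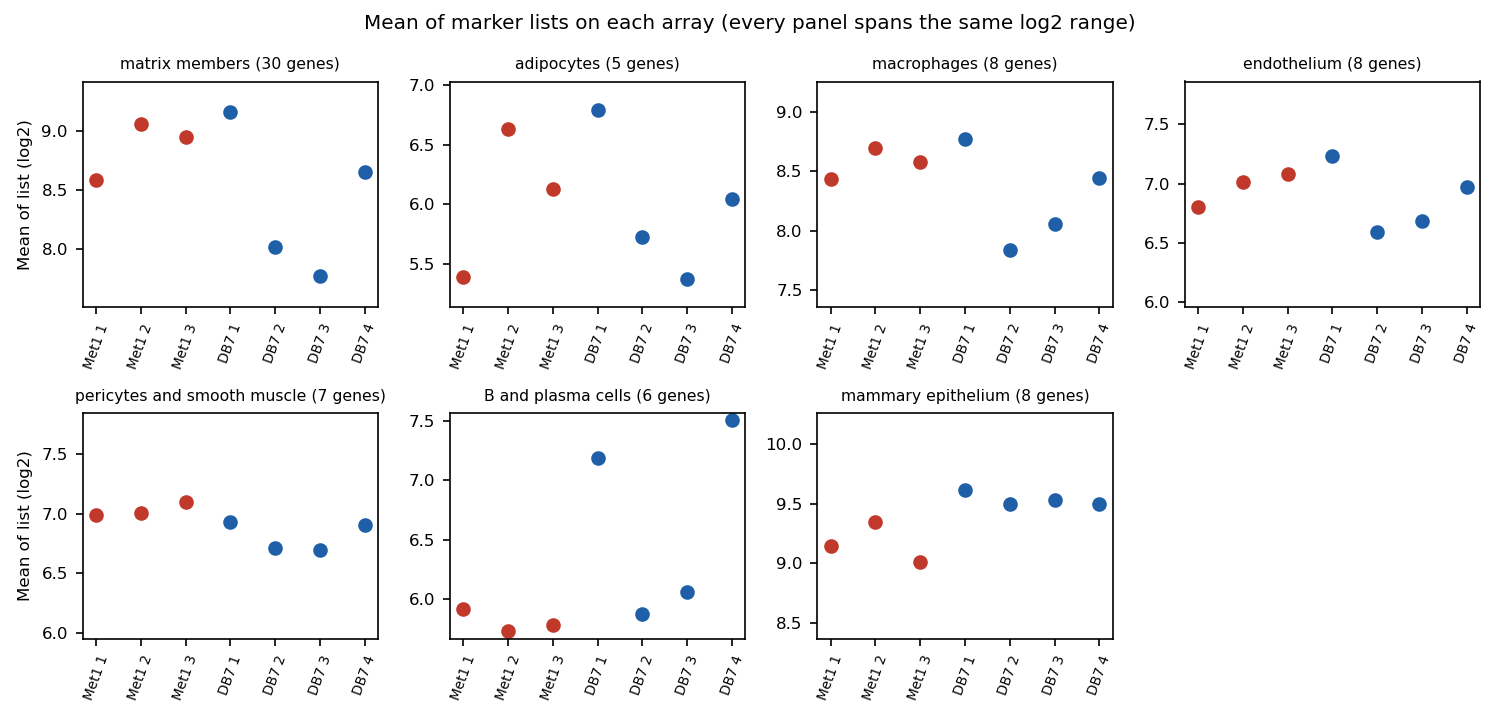
Mean log2 value (y axis, every panel spanning the same range) of the 30 tested matrix genes and of 6 lists of cell type markers on each array, red for Met1 and blue for DB7. The adipocyte panel has the matrix panel's order of arrays within each line, and the B and plasma cell panel is highest in DB7 4. Of the adipocyte genes only Adipoq and Fabp4 have that order in full. The epithelial mean is flat across DB7, though its genes differ in their order of arrays.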

How the data were processed

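Tumour RNA of 3 Met1 and 4 DB7 arrays was analysed from the log2 values the authors deposited, 1 per probe set; the submitters' processing notes name MAS5 and RMA without a role or version. The base of the logarithm is not stated and was taken as 2 from the range of the values. Exactly equal values on at least 2 arrays were found in 42.2% of probe sets. Genes were named from the platform annotation: of 22626 non-control probe sets 20380 had 1 symbol, 691 several and 1555 none. The 64 control probe sets were left out.

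Members, gene lists and the naming rule were chosen with earlier results of these data known. Values on every array are given for members past the threshold, the 10 with the smallest p, the 5 with the largest and the 5 with the smallest SD in DB7, and Col1a1, Col1a2, Col3a1, Fn1, Sparc, Dcn, Pdgfra, Pdgfrb and Fap. Of the wider list, up to 4 called genes in each direction with the smallest p are named. Each of the 11704 probe sets above the array median on at least 3 of 7 arrays was fitted with limma 3.58.1 in R 4.3.3 (lmFit, eBayes with an intensity trend, line as the only term, two-sided, Benjamini-Hochberg over all tested probe sets, threshold 0.05). A gene was represented by its tested probe set with the highest mean. The number of arrays limits the precision. Alternatives changed the normalization, filter, variance model, probe set rule and arrays. Promoter windows came from RefSeq (GRCm38.p6).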

Additional observations from a re-analysis of the deposited data

How the results depend on the processing

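Thbs1 kept its direction and its call in all 20 alternatives run, and Lox kept its direction in all 20 and its call in 10. Against 2 members higher in Met1, 1 was higher with quantile normalization, with no intensity filter, with robust eBayes and with the replicate block, and 9 with array weights. Leaving out 1 array at a time gave 1 to 15 higher, the 15 without DB7 1, and 23 were higher without DB7 1 and DB7 4. Against 0 lower, 1 was lower with array weights, and leaving out 1 array gave 0 to 1; the gene was Serpinh1 each time. Of the wider list, 3 genes rather than 5 were lower where every array had to exceed its median, which tests fewer genes, and 25 rather than 12 were higher without DB7 1 and DB7 4. Shares over all tested genes are given above only for the main fit and the fit without DB7 1 and DB7 4. Counts from the other fits have no such share beside them and cannot be read as particular to the members. The median SD of member probe sets in Met1 was 0.0775 to 0.299 with 1 Met1 array left out. Reversed differences were Eln at -0.013 (mean of its probe sets) and Dcn at -0.10 without Met1 2 and -0.12 without DB7 3, within a range of -0.12 to 0.56 with 1 array left out; apart from arrays left out, the cause was not tested. The deviations of same-numbered arrays correlated at -0.17, -0.05 and 0.02, and the main fit did not pair arrays by number. The labels do not say what the numbers stand for, and these correlations cannot settle whether same-numbered arrays shared any handling. Dim members near the array median limit the size of a difference that can be seen.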
